A study of Mus musculus with 142 samples.

Results

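The latest-replicating 10% of the genome is the set of 50 kb windows with the lowest mean replication timing (RT) in mouse embryonic stem cells (mESCs). Its members were chosen by the RT values themselves. The mean log2(E/L) of each window was taken over the 138 columns of the allele-specific table, windows with a value in at least 100 columns were ranked, and those at or below the 10th percentile of these means were kept. The rule selected 4203 of 42029 ranked windows (210 Mb), out of 49264 windows in the table. The threshold was a log2(E/L) of −1.30. In E/L Repli-seq, newly made DNA is labelled with BrdU, cells are sorted into early and late S phase, and log2(E/L) compares labelled DNA of both fractions, so that a negative value is late.

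The cells were F121-9, an mESC line whose homologs come from musculus and castaneus mice, so that reads over a SNP can be given to 1 homolog. The study deleted parts of the Dppa domain on chromosome 16, an early-replicating domain that holds Dppa2, Dppa4 and Morc1, to find which elements keep it early. The values cover 66 libraries of 53 clones from 26 deletion lines, and each clone is 1 line of cells grown from an edited cell. All carry at least 1 CRISPR-mediated deletion, and no profile of the unedited parent was analysed here, so that the unmodified homolog of each clone is the nearest control. The names of the lines list what was removed. A, B and C are the 3 segments with early replication control element (ERCE) activity, a suffix OSN names sites in them that are co-bound by Oct4, Sox2 and Nanog (AOSN, BOSN1, BOSN2, COSN1, COSN2 and COSN3), and a suffix TSS names a transcription start site. Z is an OSN site outside A.

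Within C alone the lines were CL20k (the left side of C), CR14.6k (the right side), CR13.4k (a span with all OSN sites of C), CR11.8k (COSN2, COSN3 and CTSS), COSN1, COSN1.2.8k, COSN12, COSN123 and CTSS. Lines with deletions in A and C were A.COSN12, A.COSN123, AOSN.COSN12, AOSN.COSN123 and Z.AOSN.COSN123. Lines with deletions in B were BTSS, BTSS.CTSS, ATSS.BTSS.CTSS, BOSN1.COSN123, BOSN12.COSN123, A.BOSN1.COSN123, A.BOSN12.COSN123, A.BOSN12.BTSS.COSN123 and AOSN.BOSN12.COSN123. The other 3 lines lacked the whole of B, namely A.B.COSN123, AOSN.B.COSN123 and Z.B.C. The deletion was on the musculus homolog in 51 of 53 clones, and on castaneus in CR11.8k clone 50 and CTSS clone C4. In some clones the other homolog carried a deletion of B, BTSS or ATSS. In 10 clones a chromosome had no value on 1 homolog in over 90% of its ranked windows, and these clones are called clones lacking a chromosome below. Most clones had 1 library, and p-values over clones measure the spread between these clones. The paper made COSN12 and COSN123 in the COSN1 line, and added further deletions to the only COSN123 clone it recovered. Many clones therefore share descent, which the tests over clones did not model, so that they are not fully independent units.

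Replication timing is set in large chromosomal units, the replication domains, that can switch as a whole between early and late. DNA that replicates late is typically poor in genes, rich in A and T, packed in heterochromatin and placed at the nuclear lamina, and much of it belongs to genes that are silent in the cell type at hand. In mESCs, late domains flank many early ones, the Dppa domain among them.

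The sequences below show DNA from both ends of the RT range. They are the central 300 bases of the window with the lowest mean and of the window with the highest mean among all ranked windows, both from the plus strand of GRCm38, with each CG in capitals. The latest window lies in Ntng1 (a netrin-related membrane protein of axons), had a mean log2(E/L) of −1.58 and a GC content of 39.9%, and its centre (chr3:109874851-109875150) holds no CG, although its own GC content of 44.3% is above that of most late windows. The earliest window had a mean of 1.45 and a GC content of 52.5%, and its centre (chr16:18174851-18175150) holds 6.
Latest window: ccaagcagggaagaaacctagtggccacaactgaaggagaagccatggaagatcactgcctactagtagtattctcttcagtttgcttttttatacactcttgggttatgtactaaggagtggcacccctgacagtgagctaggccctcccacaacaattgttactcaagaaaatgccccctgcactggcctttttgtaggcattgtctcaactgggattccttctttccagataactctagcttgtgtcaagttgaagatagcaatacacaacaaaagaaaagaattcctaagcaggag
Earliest window: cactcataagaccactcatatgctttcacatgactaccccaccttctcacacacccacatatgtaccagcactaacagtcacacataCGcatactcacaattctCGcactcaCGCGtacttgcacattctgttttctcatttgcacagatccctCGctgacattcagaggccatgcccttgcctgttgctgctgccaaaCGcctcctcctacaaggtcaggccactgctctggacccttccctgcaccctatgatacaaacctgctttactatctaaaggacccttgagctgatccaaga

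Over all members, the median GC content was 38.1%, against 41.8% over all ranked windows and 46.8% in the earliest 10% (4203 windows with the highest means). CG dinucleotides were at a median of 5.04 per kb in the latest 10%, 8.18 per kb over all ranked windows and 12.4 per kb in the earliest 10%. The 5th to 95th percentiles of GC content in the latest 10% (35.9% to 41.4%) barely met those of the earliest 10% (41.2% to 52.3%). Bases that the reference marks as repeats made up a median of 34.4% of a late window, 30.1% of a ranked window and 27.9% of an early one. Neither base composition nor genes entered the rule directly. The late windows that its column minimum left out had a median GC content of 37.1% and a median of 41.4% of bases marked as repeats.

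Protein-coding genes were rare. GENCODE places 1.43 starts of protein-coding genes per Mb in the latest 10%, 8.93 per Mb in all ranked windows and 20.7 per Mb in the earliest 10%. Of the late windows, 94.4% held no such start and 69.1% touched no protein-coding gene, against 70.7% and 39.2% of all ranked windows. A further 957 late windows (22.8%) lay wholly inside gene bodies. Their median log2(E/L) of −1.40 was next to that of the 2904 windows without a gene, −1.39, and the median SD between clones was 0.211 in the first set and 0.212 in the second.

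**Figure D1:**
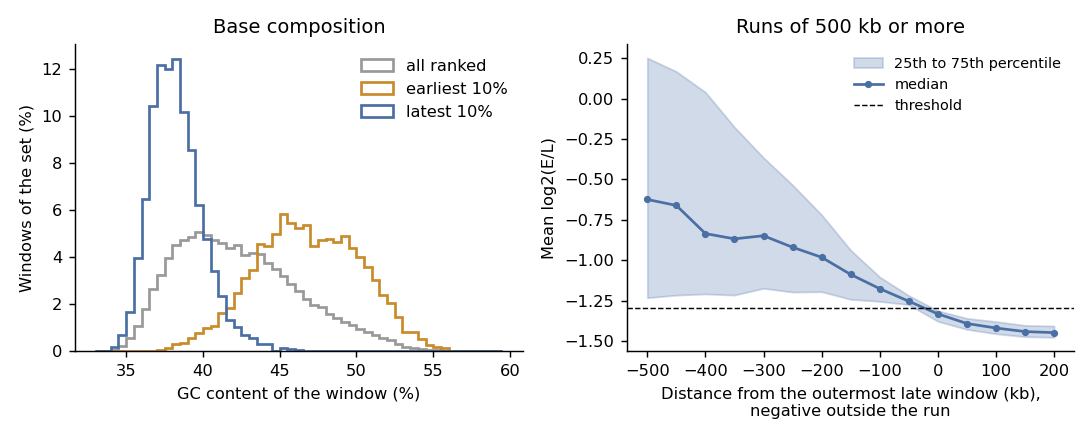
Left, GC content of 50 kb windows (x axis, %) as a share of the windows of each set (y axis, %), for the latest 10%, the earliest 10% and all ranked windows. The latest 10% peaks near its median of 38.1% and hardly meets the earliest 10%. Right, mean log2(E/L) over all columns (y axis) by distance in kb from the outermost late window of the 60 runs of at least 500 kb (x axis, negative outside the run), as median line and 25th to 75th percentile band, with the threshold dashed.

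Most promoters in late windows held few CG. RefSeq (GRCm38.p6) gave the 250 bases before and 50 bases after the start for 255 protein-coding genes in the latest 10% and for 14764 in ranked windows. The late promoters held a median of 2 CG, against 15 over all ranked windows and 18 in the earliest 10%, and 17.6% held none, against 4.17% of all. Yet 46 of the 255 (18%) held at least 15 CG, as 51.5% of all did. The letters TATAAA on either strand occurred in 34.1% of late promoters and in 12.4% of all. CG-rich promoters inside the latest 10% included those of Sorcs1 (a sorting receptor of neurons), Prkd1 (a protein kinase), Sema3c (a secreted guidance cue), Adgrl3 (an adhesion receptor of synapses), Isl1 (a LIM-homeodomain factor of motor neurons and heart) and Erbb4 (a neuregulin receptor). These sequences are shown with CG in capitals, for the late promoter with the most CG, for the promoter in the latest window that holds a start, and for Sox2, a pluripotency factor in an early window.
Sorcs1, chr19:50678597-50678896, minus strand: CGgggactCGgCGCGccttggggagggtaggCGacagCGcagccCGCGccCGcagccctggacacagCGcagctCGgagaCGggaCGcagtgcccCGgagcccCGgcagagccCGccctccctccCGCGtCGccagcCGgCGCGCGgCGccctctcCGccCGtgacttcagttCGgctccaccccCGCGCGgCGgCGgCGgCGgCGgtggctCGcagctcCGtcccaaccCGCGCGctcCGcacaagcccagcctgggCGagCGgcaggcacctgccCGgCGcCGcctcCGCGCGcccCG
Adgrl4, chr3:151437632-151437931, plus strand: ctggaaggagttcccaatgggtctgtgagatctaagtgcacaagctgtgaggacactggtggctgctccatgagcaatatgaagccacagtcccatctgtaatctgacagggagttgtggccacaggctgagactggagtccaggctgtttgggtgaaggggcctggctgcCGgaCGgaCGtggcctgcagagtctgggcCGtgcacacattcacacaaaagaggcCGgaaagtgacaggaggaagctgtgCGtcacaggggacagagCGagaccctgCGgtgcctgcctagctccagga
Sox2, chr3:34649745-34650044, plus strand: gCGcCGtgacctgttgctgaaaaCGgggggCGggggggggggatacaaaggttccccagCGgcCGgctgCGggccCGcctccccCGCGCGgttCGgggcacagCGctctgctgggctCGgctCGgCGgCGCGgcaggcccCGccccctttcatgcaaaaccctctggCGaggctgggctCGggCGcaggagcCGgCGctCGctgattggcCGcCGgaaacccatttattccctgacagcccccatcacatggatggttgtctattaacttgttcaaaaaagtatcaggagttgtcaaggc
The Sorcs1 start lay in a window with a mean log2(E/L) of −1.42 and its promoter held 50 CG, the Adgrl4 start at −1.55 with 8 CG, and the Sox2 start at 1.27 with 27 CG. A promoter full of CG was thus found at both ends of the RT range.

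The chromosomes held unequal parts of the latest 10%. Chromosome 3 had the highest share, with 452 of its 2612 ranked windows (17.3%), followed by chromosome 8 with 401 of 2382 (16.8%) and chromosome 16 with 250 of 1637 (15.3%). Chromosome 13 had the lowest share, 90 of 2137 (4.21%), and chromosomes 19, 17 and 9 had 5.82%, 5.99% and 6.38%. Of all members, 10.8% lay on chromosome 3, 9.83% on chromosome 1 and 9.54% on chromosome 8. The low share of chromosome 13 was not matched by a high median, since its median log2(E/L) of 0.04 was next to that of all ranked windows (0.05). Windows with too few values to be ranked but with a mean at or below the threshold were most numerous on chromosome 1 (312), chromosome 3 (266) and chromosome 14 (246). The late windows had nearly the same GC content on every chromosome, with medians from 37.4% on chromosome 16 to 39.2% on chromosome 9.

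**Figure D2:**
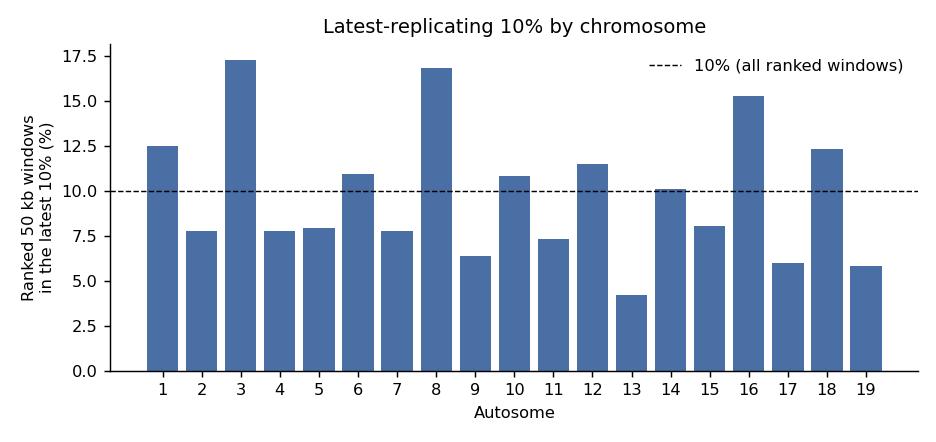
Share of ranked 50 kb windows that belong to the latest 10% (y axis, %) on each autosome (x axis), with a dashed line at the 10% that the rule fixes over all ranked windows. Chromosomes 3, 8 and 16 lie highest, at 17.3%, 16.8% and 15.3%, and chromosome 13 lowest, at 4.21%.

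Adjacent members formed 1319 runs with a median length of 100 kb, and 457 of them were a single window. Runs of at least 500 kb numbered 60 and held 18.4% of the members. Most runs did not end at an earlier window: 1727 ends (65.5%) met a window without enough values to be ranked, and 911 met a ranked window above the threshold. Bridging gaps of 1 window gave 924 runs and a longest run of 2800 kb on chromosome 8 (chr8:101050001-103850000), which was cut into shorter ones by the rule. Around the 60 long runs, the median log2(E/L) rose from −1.45 at 200 kb inside to −1.33 in the outermost late window, −1.18 at 100 kb outside and −0.62 at 500 kb outside. The same means define the runs, and the authors' smoothing over 300 kb spreads any step over neighbouring windows, so that the steepness of a border cannot be read from these values.

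The longest run was chr8:16150001-17700000 (mm10), 31 windows with a mean log2(E/L) of −1.42. It covers 84.3% of Csmd1, a complement-regulatory transmembrane protein of neurons, which is the only protein-coding gene there. Clone means over this run went from −1.70 to −1.07 on musculus (median −1.42) and from −1.78 to −1.16 on castaneus (median −1.40). The second run, chr11:111200001-112450000, 25 windows at −1.42, touches no protein-coding gene. The third, chr19:50150001-51150000, 20 windows at −1.38, holds 98.7% of Sorcs1 with its CG-rich promoter. The fourth, chr1:69300001-70200000, 18 windows at −1.42, holds Ikzf2 (the lymphoid transcription factor Helios) whole and 41.5% of Spag16 (a sperm axoneme protein). The fifth, chr18:40650001-41550000, 18 windows at −1.39, touches no protein-coding gene. Their mean differences between the homologs lay between −0.07 and 0.03.

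The 3 latest windows were all on chromosome 3. They were chr3:109850001-109900000 in Ntng1 at −1.58, chr3:151350001-151400000 at −1.57 and chr3:149850001-149900000 at −1.56, the latter pair without a protein-coding gene. In the first of them, clones ranged from −1.91 to −1.10 on musculus and from −1.91 to −1.21 on castaneus. The windows next to the threshold showed how narrow the step is. Just inside were chr11:38050001-38100000, chr4:110650001-110700000 in Agbl4 and chr15:45400001-45450000, and just outside were chr12:47200001-47250000, chr16:71450001-71500000 and chr3:76400001-76450000 in Fstl5, and all 6 had a mean of −1.30.

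Genes with their midpoint in the latest 10% numbered 313 of 18758 protein-coding genes in ranked windows (1.67%), which is the background for the gene families below. The shares are descriptions, since neighbouring genes share windows. Very long genes (at least 500 kb) were in the latest 10% in 47 of 196 cases (24.0%), among them Csmd1, Gpc5 (a glypican), Tenm2 (a teneurin of synapses), Rbfox1 (a neuronal splicing factor), Dcc (the netrin receptor) and Ptprt (a receptor phosphatase). This count used the midpoint of a gene, and the body of such a gene could span both states. Gabrg3 (a GABA receptor subunit) had all 14 of its ranked windows in the latest 10%, Nrxn3 (a neurexin) 23 of 24 and Nav3 (a neuron navigator) 15 of 17, whereas Dlg2 (a scaffold of synapses) had 16 of 32 and started in a window at 0.24, and Rbfox1 had 2 of 32.

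Some families of neuronal adhesion molecules had higher shares, over few genes. Contactins and their relatives had 6 of 12 genes in the latest 10% (Cntn1, Cntn4, Cntnap4, Cntnap5a, Cntnap5b and Cntnap5c), and their windows ranged from −1.48 to 1.31. The Slitrk and Lrrtm family, organisers of synapses, had 4 of 6 (Lrrtm1, Lrrtm3, Lrrtm4 and Slitrk6). Type II cadherins had 3 of 8 (Cdh8, Cdh10 and Cdh11) and non-clustered protocadherins 0 of 6, of which the lowest was at −1.30, next to the threshold. A further 3 non-clustered protocadherins lay in windows that were not ranked, among them Pcdh9, whose midpoint window had a mean of −1.46. Keratin-associated proteins of the hair shaft had 14 of 57 (24.6%), all on chromosome 16, at −1.30 to −1.46.

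Receptor families of the nose gave lower shares. Olfactory receptors were in the latest 10% in 46 of 838 cases (5.49%), at window means down to −1.44, with 25 of the 46 on chromosome 7. Vomeronasal receptors gave 13 of 203, on chromosomes 6, 7 and 17, and formyl peptide and trace amine receptors 3 of 22, which were Fpr-rs3, Fpr-rs6 and Fpr-rs7. A further 290 olfactory receptors lay in windows that were not ranked. Serpinb7, Serpinb2, Serpinb8 and Serpinb3c (serine protease inhibitors in a cluster on chromosome 1) were 4 of 42 Serpina and Serpinb genes, and Ugt8a, a glycolipid-making enzyme of myelin, was 1 of 74 Ugt and Cyp2 genes.

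Other lists had no member in the latest 10%. This held for 0 of 43 defensins, 0 of 57 clustered protocadherins, 0 of 73 ribosomal protein genes, 0 of 39 Hox genes, 0 of 56 replication-dependent histone genes and 0 of 20 pluripotency factors. At the background share of 1.67%, lists of this size hold few members or none, so that a count of 0 says little about a family. A further 21 defensins, 15 histone genes and 2 ribosomal protein genes lay in windows that were not ranked. The pluripotency factors lay between 0.61 (Dppa4, whose window is in the edited domain) and 1.30 (Utf1), and the Hox genes between 0.83 and 1.36. RNA was not measured here, so that the cell type was checked only by the early timing of the pluripotency loci.

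The rule kept windows that were sparsely measured. In the latest 10% 15.5% of the values were missing, against 2.76% in the other ranked windows and 4.11% in the earliest 10%, and 13 of the 4203 members had a value in every column. Windows with fewer than 100 columns were not ranked, and 2396 of these 4868 windows (49.2%) had a mean at or below the threshold. Among windows with 75 to 99 columns the median mean was −1.36. The 2396 windows had a median GC content of 37.1% and 1.22 protein-coding starts per Mb, close to the members. The late end of the genome may therefore be larger than the set described here. Means over fewer columns leave out some profiles, and the level of late windows differed between profiles, as given below. Such means are thus not strictly comparable with the threshold. Single values could lie far from their window, and 55 of 471208 values in the latest 10% were above 0 and 19 under −3. The depth behind a window is unknown, because only ratios were deposited.

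The level of the latest 10% differed between libraries. Profile means over the members ran from −1.54 to −1.10 on musculus (median −1.43, n = 66) and from −1.55 to −1.12 on castaneus (median −1.39, n = 66), while the earliest 10% stayed between 1.15 and 1.43 on musculus and between 1.16 and 1.42 on castaneus. This level moved with the share of members without a value. In 53 profiles with under 5% missing, the median was −1.47 and the range −1.55 to −1.24. In 50 profiles with 5% to 25% missing, the median was −1.39 and the range −1.48 to −1.20. In 29 profiles with over 25% missing, the median was −1.22 and the range −1.33 to −1.10. Counting only windows that a profile measured, as the mean deviation from the all-column mean, the medians of the 3 classes were −0.08, 0.00 and 0.17. The part of the missing values in the level was not tested.

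**Figure D3:**
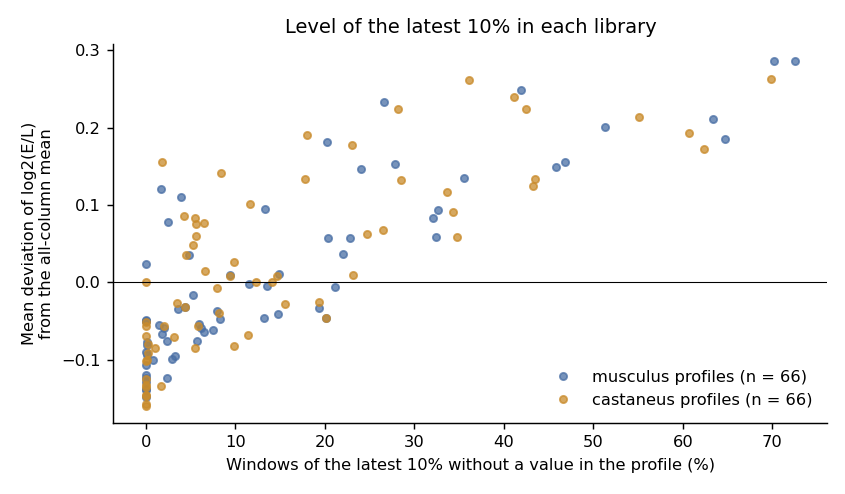
Mean deviation of log2(E/L) from the all-column mean over the measured windows of the latest 10% (y axis) against the share of these windows without a value (x axis, %), 1 point per library and homolog. Profiles with over 25% missing sit between 0.06 and 0.29, and those with under 5% missing between −0.16 and 0.16.

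Both homologs of a library deviated together. The offset had the same sign on musculus and castaneus in 54 of 66 libraries, with an SD of 0.115 on musculus and 0.116 on castaneus, and an SD of 0.05 for their difference. Libraries of the same clone also differed, by 0.001 to 0.182 (median 0.053) in the 11 clones with more than 1 library. In COSN123 clone A10, the offsets of 4 libraries on musculus went from −0.08 to 0.08 while the share missing went from 0.143% to 32.0%.

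Membership was also described in clones left out of the choice. For each clone, the latest 10% was chosen again from the other clones, and the clone's own profile was then read. On both homologs of all 53 clones at least 99.6% of these windows were below 0. A median of 69.9% fell in the lowest 10% of the clone's own profile (35.8% to 87.0%), and a median of 97.3% in its lowest 20% (69.7% to 99.8%). The members chosen without a clone shared 83.5% to 99.4% of the set. In these readings the windows stayed at the late end while the exact members varied. Clones that share descent with the clone left out took part in the choice, and all profiles had been quantile normalized. The shares are therefore a description and not an independent check. Leaving out a clone also takes its columns from the 100 that a window needs. The lowest share, 83.5%, came without COSN123 clone A10, which had 4 libraries. The highest, 99.4%, came without BTSS.CTSS clone G3, which lacked a value in 72.5% of the members on musculus. The parts of the column minimum and of the threshold in these shares were not tested.

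The question whether the latest 10% differs between the homologs was asked per clone, over the windows that both homologs measured. The musculus minus castaneus mean was −0.0139 ± 0.0524 (SD, n = 53 clones), with a lowest value of −0.164, a median of 0.0051 and a highest of 0.0762. It was positive (musculus earlier) in 32 clones and negative in 21. The mean did not pass a two-sided sign-flip permutation test over clones (p = 0.0576). The value also followed the homolog that chose the members: it was −0.0667 over windows chosen from the musculus columns and 0.0418 over windows chosen from the castaneus columns. Those signs are fixed by the choice and were not tested. The sign turned with the clones that lack a chromosome. All 10 of these were negative, from −0.164 to −0.0192, and without them the mean was 0.00684 ± 0.0222 (n = 43 clones, permutation p = 0.0463), with musculus earlier in 32 of 43. Other choices moved the negative mean past the test, as with the latest 20% (−0.0196, permutation p = 0.00359) and with libraries as units (−0.0139, permutation p = 0.0248). Libraries as units count repeat cultures of a clone separately, so that the latter p-value overstates the independent units.

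The 4 clones with the lowest values lacked castaneus chromosome 11. In all, 6 clones lacked it, with values from −0.164 to −0.0192, and their median difference over all ranked windows, −0.112 to −0.0338, was below 0 as well. The others lacked castaneus chromosome 13 (AOSN.B.COSN123 clone 3C.4, −0.117), castaneus chromosome 14 (both Z.B.C clones, −0.0912 and −0.0395) or castaneus chromosome 16 (COSN1.2.8k clone 18, −0.0677). A.B.COSN123 clone 2E.1 lacked musculus chromosome 13 besides castaneus chromosome 11. With each clone centred on its own median over all ranked windows, a choice made after seeing the data, the mean over the latest 10% was 0.00072 (n = 53, permutation p = 0.841). The offset of these clones was thus not limited to late DNA, and its cause was not tested.

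**Figure D4:**
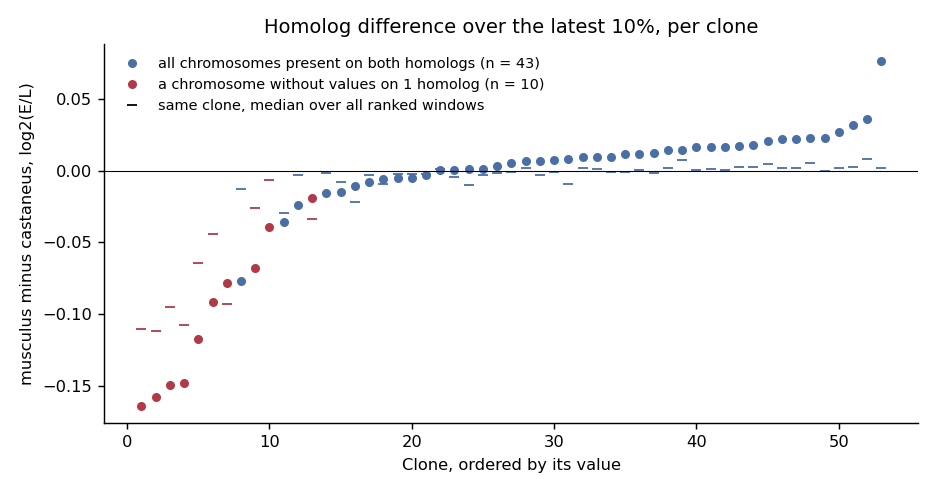
Difference musculus minus castaneus in log2(E/L) over the latest 10% (y axis, points) for the 53 clones in rising order (x axis), with the median over all ranked windows of the same clone as a dash. The 10 clones in which a chromosome has no values on 1 homolog all lie below 0, down to −0.164, and the other 43 lie between −0.077 and 0.0762.

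Window by window, homolog differences in the latest 10% were small. The absolute mean difference had a median of 0.0482 and a 95th percentile of 0.177, against 0.0937 and 0.533 over all ranked windows and 0.0255 and 0.0852 in the earliest 10%. The rule bounds this value, because a window that is late on 1 homolog alone cannot have a mean at the late end, so that the gap to all windows was not tested. In the limma test over clones (Benjamini-Hochberg adjusted over all windows), 1267 of 4203 members (30.1%) passed an adjusted p of 0.05, where 63.5% of all ranked windows did. Of these, 451 were earlier on musculus (10.7%, against 28.6% of all windows) and 816 later on musculus (19.4%, against 34.9% of all). That split moved to 570 and 468 without the clones lacking a chromosome, and to 609 and 620 with each clone centred. No member passed both the adjusted p and a size of 0.5, as 5.79% of all windows did, and 53 passed a size of 0.25, against 20.4% of all.

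The members with the largest differences sat next to the threshold, and some were the edge of a longer stretch. The window furthest to musculus late was chr2:141950001-142000000 in Macrod2 (a mono-ADP-ribosylhydrolase in a very long gene). Clones ranged there from −1.996 to −0.95 on musculus and from −1.86 to −0.25 on castaneus, and musculus was later in 38 of 41 clones (mean −0.37 ± 0.30 SD, limma adjusted p = 1.3e-10). In chr17:52150001-52200000, musculus was later in 43 of 49 clones by −0.37 ± 0.25 (limma adjusted p = 1.04e-14). It lay at the end of a 2300 kb stretch with differences of at least 0.25 in the same direction, which holds Satb1 (a genome organiser) and Tbc1d5, peaks at −0.81 and has 1 member of the latest 10%. In chr10:109150001-109200000, musculus was later in 42 of 44 clones by −0.36 ± 0.23 (limma adjusted p = 3.01e-14).

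At the other end were windows that replicated earlier on musculus. In chr8:37300001-37350000, musculus was earlier in 39 of 46 clones by 0.34 ± 0.30 (limma adjusted p = 1.54e-10), and it opened a 900 kb stretch over Sgcz (a sarcoglycan) in which the difference reached 0.75. In chr4:20550001-20600000 in Nkain3, musculus was earlier in 34 of 39 clones by 0.31 ± 0.23 (limma adjusted p = 5.6e-11). In chr7:68950001-69000000, musculus was earlier in 38 of 46 clones by 0.29 ± 0.29 (limma adjusted p = 6.65e-09). All 6 kept their direction and their call without the clones lacking a chromosome.

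The spread between clones was measured as the mean absolute deviation of a clone from the mean of the other clones. On musculus it was 0.178 ± 0.0521 (SD, n = 53 clones) over the latest 10% and 0.160 ± 0.0386 over all ranked windows, larger in the latest 10% in 36 of 53 clones (difference 0.0171, two-sided sign-flip permutation p = 0.0113). On castaneus it was 0.172 ± 0.0487 against 0.162 ± 0.0385, larger in 29 of 53 (difference 0.00954, permutation p = 0.113), and it passed the test on castaneus without the clones lacking a chromosome (0.0174, permutation p = 0.0191, n = 43). Against the earliest 10%, a comparison added after seeing the data, the deviation was larger by 0.0555 on musculus and by 0.0501 on castaneus (permutation p = 1e-05 for both, the smallest that the resamples can give). The largest differences from all ranked windows on musculus were in A.COSN12 clone D6 (0.184) and BTSS.CTSS clone G3 (0.152). These clones lacked a value in 70.2% and 72.5% of the members. The part of missing values in these comparisons was not tested.

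The spread was not highest at the very end of the range. The median SD between clones per window on musculus was 0.211 in the latest 10%, 0.216 and 0.221 in the next 2 deciles, and 0.153 in the earliest 10%. In the latest 10%, more of it was an offset of the whole clone. The SD of the clones' offsets on musculus was 0.122 in the latest 10%, 0.0543 over all ranked windows and 0.0551 in the earliest 10%, and the median SD of a clone's windows around its offset was 0.182, 0.197 and 0.143. On castaneus the offsets had an SD of 0.122, 0.0663 and 0.0552. These offsets moved with the share of missing windows described above.

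In the most variable members, single libraries lay far from the rest. The top pair were neighbours, chr4:112700001-112750000 and chr4:112650001-112700000, in the Skint cluster (thymic selection genes of gamma-delta T cells), with SDs of 0.99 and 0.82 averaged over both homologs. CL20k clone 49 stood at −11.0 and −10.8 on musculus there, where the median clone was at −1.34 and −1.27. The next was chr1:95300001-95350000 in Fam174a (SD 0.47), where A.COSN12 clone A3 stood at 2.41 on castaneus against a median of −1.42. The reads behind these values are unknown.

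Whether loss of the whole B segment goes with a change in the latest 10% elsewhere was asked on the musculus homolog, with chromosome 16 left out. The 9 clones without B had a mean of −1.38 ± 0.08 (SD), from −1.46 to −1.26, and the 44 other clones −1.38 ± 0.13, from −1.54 to −1.10. The groups overlapped wholly, and the difference of −0.0039 did not pass (two-sided permutation p = 0.933). They also differed in the mean share of members without a value on musculus, 6.18% in the clones without B and 15.6% in the others. The level moved with that share, and its part in this comparison was not tested. Per window, limma called 0 of 4203 members at an adjusted p of 0.05, where 0.219% of all tested windows (92 of 42012) passed, and the unadjusted p was under 0.05 in 192 members (4.57%) and in 7.89% of all windows. Of the 9 clones without B, 5 lacked a chromosome. All 9 also carried deletions in C and in A or Z, and the other clones included lines with deletions inside B. The contrast therefore does not set absence of B alone against intact B, here or beside the Dppa domain.

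The late DNA beside the Dppa domain was examined on chromosome 16. No member lay within the domain, and the nearest were chr16:47650001-47700000, 500 kb to its left, and chr16:51100001-51150000, 2500 kb to its right. Within 3 Mb on both sides there were 18 members, 11 on the left and 7 on the right. Over these, the musculus minus castaneus difference in the 9 clones without B was −0.058 ± 0.129 (SD), and in 41 other clones with the deletion on musculus it was −0.0027 ± 0.137 (difference −0.055, two-sided permutation p = 0.268). In 4 of the 9 clones B was deleted on both homologs, so that their difference does not set deleted against intact B, and without these 4 the difference was −0.0071 (permutation p = 0.901). Without AOSN.B.COSN123 clone 3C.4 alone it was −0.0313. The 3 lines without B differed in sign. All 5 clones of AOSN.B.COSN123 were negative, at −0.246, −0.170, −0.132, −0.0984 and −0.0785, of which the first and the last pair had B deleted on both homologs, the A.B.COSN123 clones were at −0.0466 and −0.0182, and both Z.B.C clones were at 0.135 and 0.136. Those Z.B.C clones and 3 others of the 9 lacked a chromosome, and without all clones of that kind the difference was −0.127 (permutation p = 0.0897, 4 clones without B). Among the other clones the values ran from −0.223 to 0.643, and the highest, A.COSN12 clone D6, rested on 1 of the 18 windows.

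No single member beside the domain passed the test between the clones without the whole of B and the other clones. The window nearest to it, chr16:47650001-47700000, was at −0.33 ± 0.20 in 9 clones without B and −0.13 ± 0.27 in 38 others (difference −0.21, SE 0.092, limma adjusted p = 0.541). On the far side, chr16:51550001-51600000 was at 0.05 ± 0.24 and 0.08 ± 0.32 (limma adjusted p = 0.983). The 13 calls that limma made near the domain all lay in chr16:48300001-48950000, in windows that are not members. Without the clones lacking a chromosome, limma called 0 windows in the whole genome. That fit held 4 clones without B and made no call in the Dppa domain either. It therefore cannot decide whether late windows beside the domain differ.

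The Dppa domain itself did not enter the latest 10% in any deletion line. Homologs are counted here per library, so that repeat libraries of a clone count separately. Its 8 windows had a mean between 0.68 and 1.30 on 53 unmodified homologs (median 1.02), a level at which a median of 74.8% of a profile's windows were equal or later. On 66 homologs with the deletion, none had a mean at or below the late threshold, and none had a single window there. The latest were the 4 libraries of A.B.COSN123, from −0.88 to −0.75 (mean −0.79 ± 0.07 SD), with a lowest window of −1.13. They come from clones 2E.1 and 5A.7, with 2 libraries each. At the level of these 4 libraries 22.1% to 25.9% of the windows of the same profile were equal or later. Next came A.BOSN12.BTSS.COSN123 at −0.46 (2 libraries of clone C4) and A.BOSN12.COSN123 at −0.35 (2 libraries, of clones A6 and C11). AOSN.B.COSN123 was at 0.00 ± 0.30 (SD, 10 libraries of 5 clones, from −0.33 to 0.48) and Z.B.C at 0.22 (2 libraries, of clones A6 and E5). Castaneus homologs with a deletion of B, BTSS or ATSS in clones edited on musculus were counted in neither set.

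**Figure D5:**
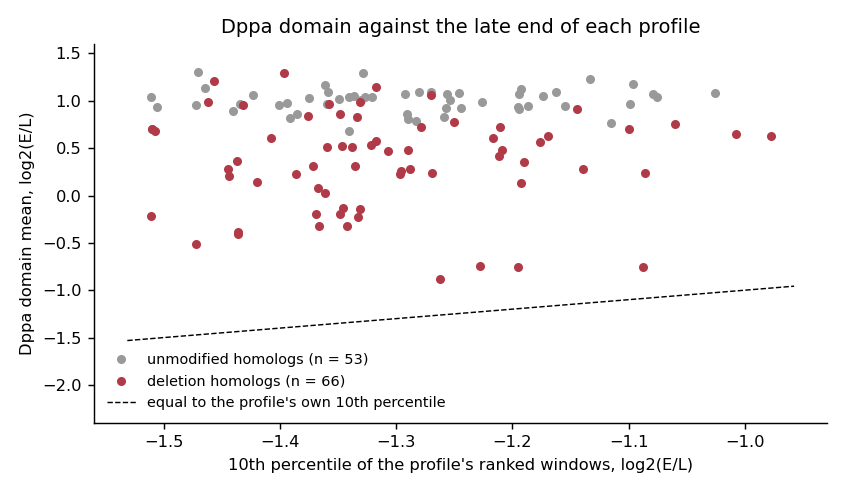
Mean log2(E/L) of the 8 windows of the Dppa domain (y axis) against the 10th percentile of the ranked windows of the same profile (x axis), for 53 unmodified homologs (grey) and 66 deletion homologs (red), counted per library. Every point lies above the dashed line of equality, and the 4 lowest, from −0.88 to −0.75, are the libraries of A.B.COSN123.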

How the data were processed

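E/L Repli-seq profiles of F121-9 deletion clones were analysed. Cells had been labelled with BrdU for 2 h. In the authors' pipeline, Trim Galore and cutadapt trimmed the reads, bowtie2 placed them on mm10 with SNP positions masked, SNPsplit sorted them by homolog, Samtools took out duplicates and bedtools made the 50 kb counts. The versions are not given in the sources used here. The deposited values are on a log2 scale (early over late), and the authors had scaled them, applied quantile normalization and smoothed them by loess over 300 kb. Depth is unknown. Smoothing makes neighbouring windows depend on each other, and quantile normalization sets the ends of each profile by the windows it holds.

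Repeat columns were averaged per library and libraries per clone. Chromosome ends in the table equalled those of GRCm38, so GENCODE vM21 and RefSeq GRCm38.p6 were used. The members and gene lists were chosen with earlier results of these data known. Clone values were tested with two-sided permutation tests (100000 resamples), and windows with limma 3.58.1 (R 4.3.3) over at least 10 clones with Benjamini-Hochberg adjustment. Both were tested on simulated data. Regions named are the 5 longest runs, the 3 latest windows, the 3 on each side of the threshold, the 3 with the largest and smallest musculus minus castaneus difference and the 3 with the largest SD between clones, with up to 5 protein-coding genes each, besides genes of the fixed lists. CG-rich promoters and very long genes given as examples were chosen after their values were seen. The result of 1 gene list is not reported here. Alternatives covered the choice of members, clones and libraries, the distance from the Dppa domain and the size of a call. The labels list 71 libraries, of which 66 were analysed here. Python 3.11.15, numpy 2.4.6, pandas 2.3.3, scipy 1.17.1 and matplotlib 3.10.9 were used.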

Additional observations from a re-analysis of the deposited data

Results flagged for a closer look

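In 5 deletion lines with 4 to 10 libraries, 4 measures each were examined for a library far from the others of its line (20 sets of values, of which chance flags about 1 in 20). 1 was found. Beside the Dppa domain, the late windows of CTSS clone C4 replicate 1 had a musculus minus castaneus difference of 0.0258, the highest of 4 libraries whose lowest was −0.0364, and its gap to the next was 0.831 of the range. Clone C4 carried its deletion on castaneus and clone C12, the other CTSS clone, on musculus. The 4 values therefore do not all set the deletion homolog against the unmodified one in the same direction.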

How the results depend on the processing

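The mean homolog difference over the latest 10% was −0.0667 with members chosen on musculus and 0.0418 on castaneus. Those signs are fixed by the choice and were not tested. The mean was −0.0196 with the latest 20% (permutation p = 0.00359) and −0.0139 with libraries as units (permutation p = 0.0248). It was −0.0145 without chromosome 16 (permutation p = 0.0471) and −0.0155 without clones labelled with a run date (permutation p = 0.0436). These p-values pass the threshold that the reported value missed, but libraries as units count repeat cultures of a clone separately. The mean was 0.00684 without clones lacking a chromosome, 0.000723 with each clone centred and 0.00875 with both (permutation p = 0.00168). Leaving out 1 clone gave −0.0156 to −0.0110. With a size of 0.25 in place of 0.5, 53 windows were called. The spread difference on castaneus was 0.0174 without clones lacking a chromosome and 0.0501 against the earliest 10%, and leaving out 1 clone gave 0.00734 to 0.0117. The difference between the clones without the whole of B and the other clones was 0.028 on castaneus and −0.0198 to 0.00554 without 1 clone. With the replicate block over numbered libraries it was 0.068 (permutation p = 0.0328, 24 libraries), and −0.142 beside the Dppa domain (permutation p = 0.00899). Both settings leave out clones whose libraries carry no number, the Z.B.C clones among them. They count repeat libraries of a clone as separate units, so that their p-values overstate the independent units. The numbers do not pair the samples: over 55 pairs of clones the correlations of same-numbered libraries ran from −0.333 to 0.482. The rule shared 2102 windows with the latest 5% and 13 with windows in every column. Bridging 2 windows gave 766 runs and adding unranked late windows 748, with a longest run of 2800 kb in both and when bridging 1 window. Centring, clones lacking a chromosome, the comparison with the earliest 10% and the added windows were chosen after seeing the data. The causes of these changes were not tested.

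With no read counts, the precision of single values is unknown, and 15.5% of the members' values are missing. Edited clones alone were analysed, most with 1 library.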

Other observations

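Late windows without enough values to be ranked resembled the members and went further in the same direction. The 2396 of these with a mean at or below the threshold had a median GC content of 37.1% (38.1% in the members), a median of 41.4% of bases marked as repeats (34.4%) and 16.4% of bases in protein-coding gene bodies (26.3%). Together with the members they formed 748 runs with a median length of 325 kb, of which 268 were at least 500 kb long and held 70.1% of the windows. With 2 windows bridged as well, the longest run was chr14:107600001-110450000, 2850 kb.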
